A study of Mus musculus with 15 samples.

Results

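Liver X receptor (LXR) signalling and cholesterol export were followed through 9 genes in mouse embryonic fibroblasts (MEFs) that lack telomerase RNA and the Werner helicase. The genes were taken by symbol: the receptors Nr1h2 and Nr1h3, the efflux pumps Abca1 and Abcg1, the lipid carrier Apoe, the ubiquitin ligase Mylip, the transcription factor Srebf1 and the desaturases Scd1 and Scd2. All 9 were among the 54495 genes of the expression table. Of the 9, 8 had at least 1 FPKM (fragments counted per length of gene, scaled for each library) in at least 2 libraries. Nr1h3 did not reach that level and was not tested. The set was selected on FPKM values of these libraries, by the pattern that Abcg1 was higher in G3DM and G5DM than in G1DM, so member values between DM generations are given below as a description, with no test.

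The libraries were made from polyadenylated RNA of MEFs harvested from embryos at E13.5, a stage counted in days of gestation, and grown in 10% serum at 3% oxygen. All animals were mTR-/- and Wrn-/-, including those that serve as controls here. TM cells also carried p53N236S/N236S, a homozygous missense allele of the tumour suppressor p53, and DM cells carried wild-type p53. G1, G3 and G5 number the generations of the mice, and telomeres are known to shorten over generations in animals without telomerase. There were 2 G1TM, 2 G1DM, 3 G3TM, 2 G3DM, 3 G5TM and 3 G5DM libraries. The labels do not say whether libraries of a group came from separate embryos. The sex markers Xist and Ddx3y, given below, differed between libraries of G1DM, G5TM and G5DM, so those groups held cells of different embryos. For the other libraries this is not known. Each p-value measures the spread between libraries, which may be partly technical. WT and p53S control cells named in the design text were not analysed here.

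LXRs are nuclear receptors that sense oxysterols, oxidised forms of cholesterol, and bind DNA as heterodimers with retinoid X receptors (RXRs). Bound by ligand, they switch on genes that carry cholesterol out of the cell (Abca1, Abcg1, Apoe), a ligase that removes lipoprotein receptors (Mylip) and genes of fatty acid synthesis (Srebf1, Fasn, Scd1). Without ligand they can hold the same genes down together with corepressors. In fibroblasts, as in macrophages, the pathway is known for matching cholesterol export to cholesterol load.

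Read totals recovered from the FPKM steps ran between 17448588 and 29571111 per library. The totals that the FPKM scale implies were 0.807 (G3TM replicate 2) to 1.11 (G5DM replicate 3) times the recovered totals. A mapped total cannot be below the reads counted, so the FPKM carried some other scaling of libraries, which is not described. The 12 fibroblast markers summed to between 3271 and 6528 FPKM in each library. Of the 12, 3 passed as lower in G3TM than in G3DM and 5 as lower in G5TM than in G5DM. Among all tested genes, 13.9% and 28.4% passed as lower in these 2 comparisons. Wrn was at most 0.599 FPKM anywhere and Terc, the mTR gene, was listed at 0 in 14 of 15 libraries, but no library with either gene intact was analysed and the p53 allele is a missense change, so levels do not check the labels. The 6 G3TM and G5TM libraries stood apart from the other 9: Rpl12 was at 300 to 610 FPKM in the 6 and 3.84 to 6.77 FPKM in the 9, Rrp1 at 73.5 to 102 against 0.780 to 1.67 FPKM, and mt-Rnr2 at 44.7 to 73.6 against 1.48 to 3.76 FPKM. The split of libraries and the TM genotype of G3 and G5 cannot be told apart, and every comparison of G3TM or G5TM with another group below spans it; G1TM with G1DM, and DM generations among themselves, do not. In G3, Xist was listed at 0 in G3TM and was at 3.04 and 3.36 FPKM in G3DM, while Ddx3y was at 0.836 to 1.42 FPKM in G3TM and listed at 0 in G3DM, so embryo sex and genotype cannot be told apart in that generation either. G1TM had Xist at 26.9 and 18.1 FPKM and Ddx3y listed at 0. G1DM had Xist at 0.00475 and 28.6 FPKM and Ddx3y at 4.44 and 0 FPKM. In G5, Ddx3y was at 0.954 FPKM in G5TM replicate 1 and at 16.4 and 16.6 FPKM in G5DM replicates 2 and 3. In the other G5 libraries Ddx3y was listed at 0 and Xist was at 2.45 to 4.88 FPKM. Sex was thus mixed in G1DM, G5TM and G5DM, and its part in the differences was not tested.

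LXR/RXR dimers bind a direct repeat of the half-site AGGTCA with 4 bases between the repeats. The promoters of the members were searched for it because Abca1 and Srebf1 are the members that passed the test in G5 below, in opposite directions. RefSeq promoters on build GRCm38.p6, from 250 bases before to 50 bases after each start site, were held for 6 of the 9 members in 11 entries; those of Abcg1, Scd1 and Scd2 were not used here. Allowing at most 3 mismatches over the 12 half-site letters on either strand, 2 members had a match, Abca1 and one Srebf1 entry, and the best windows of Nr1h2, Nr1h3, Apoe and Mylip had 4 or 5 mismatches. Of all 32851 promoters in the table, 21.9% held such a match. The Abca1 promoter lies at chr4:53159846-53160145 and the Srebf1 entry at chr11:60210422-60210721, both on the minus strand, and both are printed 5′ to 3′ along the gene with the match in capitals.
Abca1: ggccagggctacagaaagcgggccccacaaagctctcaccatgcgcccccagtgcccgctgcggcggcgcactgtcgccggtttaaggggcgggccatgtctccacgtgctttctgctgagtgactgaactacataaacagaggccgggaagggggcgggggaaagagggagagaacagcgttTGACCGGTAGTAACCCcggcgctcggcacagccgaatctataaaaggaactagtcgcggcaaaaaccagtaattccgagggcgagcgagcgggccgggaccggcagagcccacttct
Srebf1: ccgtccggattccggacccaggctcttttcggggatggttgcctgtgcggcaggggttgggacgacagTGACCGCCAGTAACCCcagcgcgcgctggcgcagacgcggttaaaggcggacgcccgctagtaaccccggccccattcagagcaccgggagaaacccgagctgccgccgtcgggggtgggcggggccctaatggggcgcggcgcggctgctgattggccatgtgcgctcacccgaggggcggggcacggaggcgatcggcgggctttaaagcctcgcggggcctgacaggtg
Read on the opposite strand, where the repeat runs forward, the matches are as follows, with the half-sites at either end and the spacer between them. The Fasn element, at chr11:120824757-120824772, is shown because its promoter was the other one found to hold the shared letters given below.
Abca1 element: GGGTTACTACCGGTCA
Srebf1 element: GGGTTACTGGCGGTCA
Fasn element: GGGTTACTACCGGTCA
The Abca1 and Srebf1 elements share 14 of 16 letters, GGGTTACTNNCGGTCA. These letters were taken from the 2 matches, so both promoters hold them by construction. Of 32851 promoters, the only other one that held them on either strand was that of Fasn, the fatty acid synthase gene. The Fasn element has the same 16 letters as that of Abca1. Counted from the start site, the match runs over positions -67 to -52 in Abca1, -182 to -167 in the Srebf1 entry and -225 to -210 in Fasn. A match in letters is a description and no evidence that a receptor was bound in these cells.

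Of the receptors, Nr1h2 (LXR-beta, chr7:44549616-44553951, minus strand) was the isoform these cells expressed. It was at 13.0 and 14.8 FPKM in G1TM and 17.4 and 15.8 FPKM in G1DM. In G3 it was at 16.4, 33.2 and 27.0 FPKM in G3TM against 28.2 and 24.1 FPKM in G3DM, and in G5 at 23.9, 24.8 and 27.6 FPKM in G5TM against 26.0, 15.7 and 13.4 FPKM in G5DM. The lowest value, 13.0 FPKM, lay in G1TM, and 1 library each of G3TM, at 16.4 FPKM, and of G5DM, at 26.0 FPKM, lay away from the others of its group. Within the p53-mutant line Nr1h2 rose: the log2(FPKM + 1) difference, the scale of every difference below, was 0.78 ± 0.29 (SE; limma adjusted p = 0.0395) for G3TM over G1TM and 0.83 ± 0.29 (adjusted p = 0.0293) for G5TM over G1TM. Neither call is firm, since 12 of 22 and 8 of 22 alternative settings or left-out libraries put the adjusted p above 0.05, with upper values of 0.202 and 0.165. Between genotypes the differences were -0.24 in G1, -0.08 in G3 and 0.50 in G5 (adjusted p = 0.874, 0.855 and 0.110), with 95% intervals of -0.92 to 0.44, -0.70 to 0.54 and -0.06 to 1.05. Without G5DM replicate 1, the library at 26.0 FPKM, Nr1h2 passed as higher in G5TM (0.77, adjusted p = 0.0123), and so did the interaction of G5 with G1 (1.01, adjusted p = 0.0347).

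Nr1h3 (LXR-alpha, chr2:91184061-91202834, minus strand), the isoform that dominates in liver and macrophages, was low throughout. It was at 0.229 and 0.334 FPKM in G1TM and 0.339 and 0.325 FPKM in G1DM, on 14 to 25 reads. In G3TM it was at 0.317, 0.837 and 0.785 FPKM against 0.311 and 0.721 FPKM in G3DM, and in G5TM at 0.585, 0.679 and 0.568 FPKM against 0.441, 1.05 and 0.511 FPKM in G5DM. The groups overlapped in every generation, and the single library above 1 FPKM rested on 57 reads. Nr1h2 stood 15.0 to 90.6 times above Nr1h3 per length, with a median of 44.2 over the 15 libraries.

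**Figure D1:**
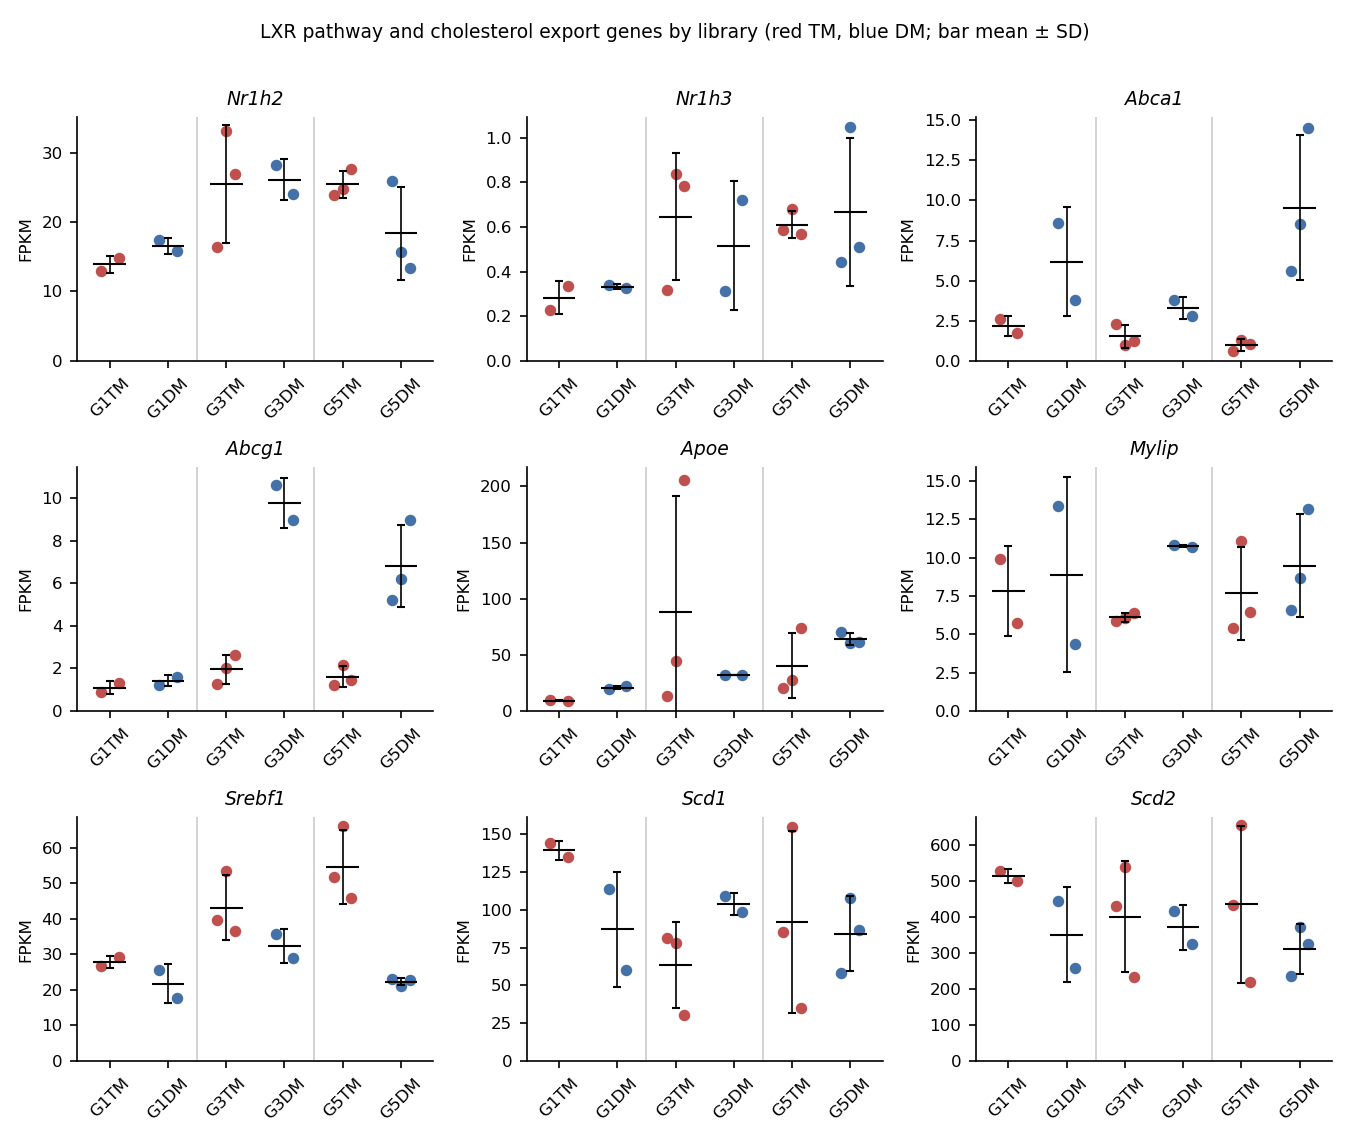
FPKM (y axes, each from 0) of the 9 genes in every library (points; red TM, blue DM) by group (x axes), with the group mean as a horizontal bar and the SD as whiskers, which run below 0 and are clipped for Apoe in G3TM. Abcg1 was at 8.95 to 10.6 FPKM in G3DM and 5.23 to 8.95 FPKM in G5DM and at most 2.62 FPKM in the other 10 libraries; Abca1 was lower, and Srebf1 higher, in TM than in DM libraries of the same generation.

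Abca1 (chr4:53030787-53159895, minus strand), the pump that loads cholesterol and phospholipid onto lipid-poor apolipoprotein A-I, was lower in TM than in DM cells of each generation, and the difference passed the test in G5. It was at 2.61 and 1.72 FPKM in G1TM, against 8.59 and 3.76 FPKM in G1DM. In G3 it was at 2.31, 1.00 and 1.24 FPKM in G3TM against 3.79 and 2.81 FPKM in G3DM. In G5 it was at 0.579, 1.30 and 1.02 FPKM in G5TM against 5.60, 8.56 and 14.5 FPKM in G5DM. The groups did not overlap in any generation, and the lowest G5DM library was above every TM library of any generation. Among all tested genes, 7.64% were lower in TM without overlap in all 3 generations.

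For G5TM over G5DM the Abca1 difference was -2.35 ± 0.33 (95% interval -3.05 to -1.65; limma adjusted p = 0.000117), a 5.11-fold lower level on the scale with the pseudocount, from means of 0.966 ± 0.364 FPKM in G5TM and 9.55 ± 4.53 FPKM in G5DM (SD, n = 3 each; tested with limma over all genes). This comparison called 58.7% of the 13562 tested genes, and 2 of the 7 members tested in it. The call held in all 22 alternatives, with adjusted p between 2.77e-05 and 0.00202. The differences were -1.11 ± 0.40 in G1 and -0.80 ± 0.36 in G3 (adjusted p = 0.223 and 0.110; unadjusted p = 0.0151 and 0.0467). The G1 pair lies inside the group of 9 libraries and its interval ran between -1.97 and -0.25. Whether the G5 difference exceeded that of G1 was tested as an interaction, which gave -1.24 ± 0.51 (adjusted p = 0.0949; 0.0219 without G5DM replicate 1). Within the TM line Abca1 differed by -0.35 ± 0.36 for G3TM over G1TM and -0.69 ± 0.36 for G5TM over G1TM (adjusted p = 0.439 and 0.130). Between DM generations, as a description, G3DM stood -0.66 and G5DM 0.55 from G1DM, and the libraries overlapped in both pairs.

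Abcg1 (chr17:31057698-31115777, plus strand), the pump that passes cholesterol on to high-density lipoprotein, had its high values in later-generation DM cells. In DM cells, whose rise is how the gene was chosen, it was at 1.22 and 1.59 FPKM in G1DM, 10.6 and 8.95 FPKM in G3DM, and 5.23, 6.21 and 8.95 FPKM in G5DM. In TM cells it was at 0.871 and 1.30 FPKM in G1TM, 1.26, 2.00 and 2.62 FPKM in G3TM, and 1.21, 2.14 and 1.45 FPKM in G5TM. Every G3DM and G5DM library lay above all other 10 libraries, and the lowest of them had 384 reads against at most 162 in those 10. By group mean the order was G3DM at 9.80, G5DM at 6.80, G3TM at 1.96, G5TM at 1.60, G1DM at 1.40 and G1TM at 1.08 FPKM. The G5DM and G3DM ranges meet at 8.95 FPKM, G5DM and G3TM are clear of each other, and each later pair of neighbours overlaps.

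The log2 differences, given without a test, were 2.17 ± 0.27 for G3DM over G1DM and 1.68 ± 0.25 for G5DM over G1DM. These comparisons called 0.214% and 0.0590% of all tested genes, and 36.5% and 6.32% were higher in the later generation without overlap. Against DM cells of the same generation, G1TM stood at -0.21, G3TM at -1.89 and G5TM at -1.57. What the choice of the gene did not use is its course in TM cells. There it differed by 0.49 ± 0.25 for G3TM over G1TM (95% interval -0.04 to 1.02; limma adjusted p = 0.115) and by 0.31 ± 0.25 for G5TM over G1TM (-0.22 to 0.84; adjusted p = 0.308). The first passed when G3TM replicate 1 was left out (adjusted p = 0.0351). Abca1 and Abcg1 did not keep to 1 ratio per length: it was 7.06 and 2.37 in G1DM, 0.356 and 0.314 in G3DM, and 1.07, 1.38 and 1.62 in G5DM. Abcg1 was high in G3DM and G5DM, while the Abca1 values of both groups overlapped those of G1DM, where Abcg1 was low.

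Over the 15 libraries and 8564 genes that reached 5 FPKM in some group mean, the genes most like Abcg1 by Pearson r of log2(FPKM + 1) were Serpinb6b (0.895), Slc8b1 (0.875), Gdf6 (0.871), Rab3a (0.867) and Tor4a (0.867). Serpinb6b averaged 0.886 FPKM in G3TM, 5.17 in G3DM, 0.675 in G5TM and 5.79 in G5DM. Most like Abca1 were Hmcn1 (0.983), Sesn3 (0.944), Gm43128 (0.943), Reck (0.928) and N4bp1 (0.926). Hmcn1, which encodes the extracellular matrix protein hemicentin, averaged 0.568 FPKM in G5TM and 7.16 FPKM in G5DM. Sesn3, which encodes a sestrin, averaged 1.52 FPKM in G5TM and 9.76 FPKM in G5DM. The points share the library split described above, so the coefficients describe these libraries only.

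Apoe (chr7:19696109-19699188, minus strand), a secreted apolipoprotein that takes up exported lipid, varied widely between libraries of a group. It was at 9.40 and 8.53 FPKM in G1TM against 19.6 and 21.8 FPKM in G1DM. In G3 it was at 12.9, 44.2 and 206 FPKM in G3TM against 31.7 and 31.8 FPKM in G3DM, and in G5 at 20.0, 27.3 and 73.6 FPKM in G5TM against 70.2, 60.5 and 61.0 FPKM in G5DM. TM was below DM without overlap in G1, as were 23.0% of tested genes, while 2 of 3 G3TM libraries and 1 of 3 G5TM libraries lay above all DM libraries of their generation. The genotype differences were -1.12 ± 0.86, 0.63 ± 0.79 and -0.87 ± 0.70 (limma adjusted p = 0.726, 0.580 and 0.300), with 95% intervals of -2.98 to 0.74, -1.07 to 2.32 and -2.39 to 0.65. Fitted without the 6 libraries of the split, the G1 difference had an adjusted p of 0.0416. Apoe was higher in G3TM than in G1TM by 2.35 ± 0.79 (adjusted p = 0.0273), a call that 6 of 22 alternatives put above 0.05, among them leaving out G3TM replicate 3, with a difference of 1.33 (adjusted p = 0.0774). The G5TM over G1TM difference was 1.83 ± 0.79 (adjusted p = 0.0682), and it passed without G3TM replicate 3 (adjusted p = 0.0108).

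Macrophages express Apoe strongly, and their markers were highest in the library where Apoe was highest. The 14 macrophage and leukocyte markers summed to 7.51 and 21.2 FPKM in G1TM against 7.74 and 20.0 in G1DM, to 6.12, 74.3 and 435 FPKM in G3TM against 22.3 and 24.3 in G3DM, and to 26.6, 32.0 and 126 FPKM in G5TM against 56.9, 70.9 and 85.0 in G5DM. The library with the highest Apoe, G3TM replicate 3, also had the highest sum, with Csf1r at 12.5 FPKM, C1qa at 64.5 FPKM and Lyz2 at 233 FPKM. Within G1DM, G3TM, G3DM and G5TM, Apoe rose in the order of the marker sums, and within G1TM and G5DM it did not. The sums of G1TM and G1DM were close, while Apoe was at 9.40 and 8.53 FPKM in G1TM against 19.6 and 21.8 FPKM in G1DM. Of the 14 markers, 10 were tested, and 1 passed for G3TM over G3DM and none for G5TM over G5DM, G3TM over G1TM or G5TM over G1TM. In that order, these comparisons called 32.0%, 58.7%, 46.8% and 49.5% of all tested genes. The median differences of the 10 markers were 1.30, -0.03, 1.60 and 0.92. Sums within G3TM ran from 6.12 to 435 FPKM, so few calls do not show equal macrophage content. The part of macrophages in the Apoe values was not tested, and fewer cells of a type cannot be told apart from less RNA per cell in bulk libraries. Abcg1 did not follow the same order across groups. It was highest in the 2 G3DM libraries, whose marker sums were 22.3 and 24.3 FPKM. In the library with a sum of 435 FPKM it was at 2.62 FPKM. Within G1TM, G1DM, G3TM and G5DM, however, Abcg1 rose in the order of the marker sums, and within G3DM and G5TM it did not. The part of macrophages in the Abcg1 values was not tested either. In G3TM replicate 3, the library with the sum of 435 FPKM, Nr1h3 was at 0.785 FPKM. Ptprc was at 0.0755 FPKM there, and at most 0.108 FPKM in any library.

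**Figure D2:**
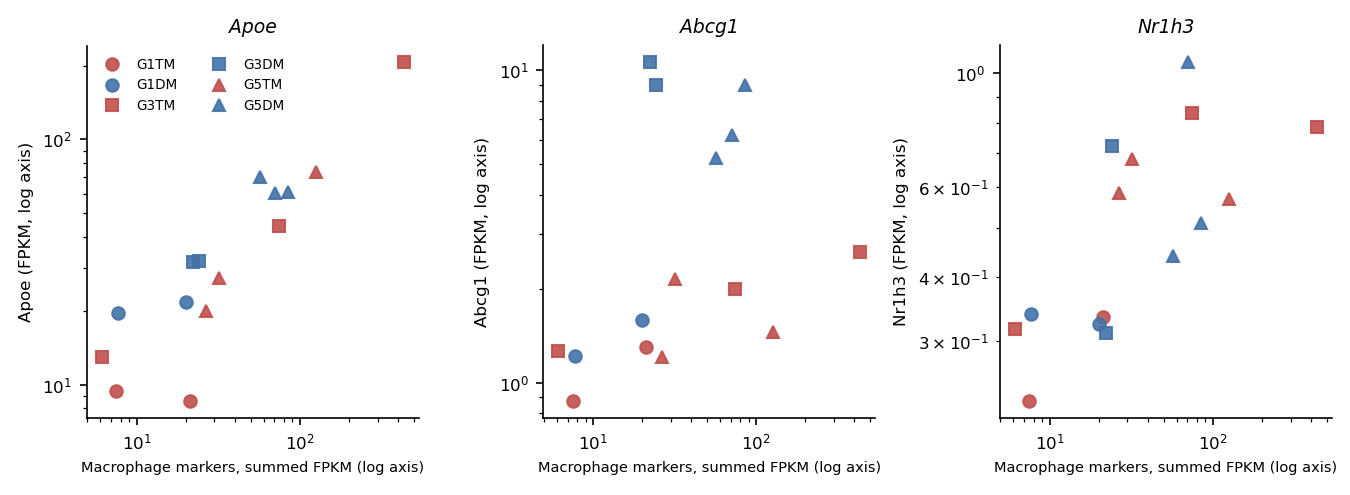
FPKM of Apoe, Abcg1 and Nr1h3 (y axes, log) against the summed FPKM of 14 macrophage and leukocyte markers (x axes, log) in the 15 libraries; red TM, blue DM, circles G1, squares G3, triangles G5. The library at 435 FPKM of markers had the highest Apoe, 206 FPKM, while the highest Abcg1, 10.6 FPKM, lay at a marker sum of 22.3 FPKM.

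Mylip (chr13:45389742-45412022, plus strand), the ligase that marks lipoprotein receptors for degradation, gave no call. It ranged between 4.38 and 13.4 FPKM over the 15 libraries, and those 2 values are the G1DM pair. In G3 the groups were apart, with 5.86, 6.05 and 6.41 FPKM in G3TM against 10.8 and 10.7 FPKM in G3DM, as they were in the same direction for 28.2% of tested genes. That difference was -0.73 ± 0.39 (limma adjusted p = 0.170), and 0.0236 when only those 2 groups were fitted. The differences were -0.04 ± 0.42 in G1 and -0.28 ± 0.35 in G5 (adjusted p = 0.994 and 0.504), with intervals of -0.96 to 0.88 and -1.03 to 0.47. Of the 3 lipoprotein receptors it acts on, 1 passed as lower in G5TM than in G5DM, beside 28.4% of all tested genes. That was Vldlr, at 0.803, 1.78 and 0.851 FPKM in G5TM against 3.13, 3.37 and 2.85 FPKM in G5DM (-0.97 ± 0.27, limma adjusted p = 0.00760). Lrp8 overlapped, at 6.18, 6.90 and 4.15 FPKM in G5TM against 3.06, 5.91 and 4.37 FPKM in G5DM. The receptors did not fall as a list.

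Srebf1 (chr11:60199089-60222581, minus strand), which encodes SREBP-1, the activator of fatty acid synthesis genes, moved the other way from Abca1. It was at 26.7 and 29.1 FPKM in G1TM against 25.6 and 17.8 FPKM in G1DM. In G3 it was at 39.5, 53.4 and 36.5 FPKM in G3TM against 35.7 and 28.9 FPKM in G3DM, and in G5 at 51.7, 66.0 and 45.8 FPKM in G5TM against 23.0, 21.2 and 22.7 FPKM in G5DM. TM lay above DM in each generation without overlap, which 10.6% of tested genes did, and the nearest libraries of the 2 genotypes were at 26.7 and 25.6 FPKM in G1 and at 36.5 and 35.7 FPKM in G3. Srebf1 was the 1 member of 8 tested that separated along the library split, with 36.5 FPKM or more in the 6 G3TM and G5TM libraries and at most 35.7 FPKM in the other 9, as 17.1% of tested genes did in that direction.

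The G5TM over G5DM difference of Srebf1 was 1.24 ± 0.20 (95% interval 0.80 to 1.67; limma adjusted p = 0.000311), from means of 54.5 ± 10.4 and 22.3 ± 0.974 FPKM (SD, n = 3 each; limma over all genes). It held in all 22 alternatives, but with quantile normalization its size was 0.70. In G1 and G3 the differences were 0.37 ± 0.25 and 0.40 ± 0.22 (adjusted p = 0.635 and 0.196). The interaction of G5 with G1 gave 0.87 ± 0.32 (adjusted p = 0.0664; 0.0444 without G5DM replicate 1). Srebf1 also rose within the TM line, by 0.59 ± 0.22 in G3TM (adjusted p = 0.0445) and 0.93 ± 0.22 in G5TM (adjusted p = 0.00519) over G1TM. The first was lost in 13 of 22 alternatives and the second with quantile normalization (0.37, adjusted p = 0.217) and without G1TM replicate 1 (0.87, adjusted p = 0.0569). These 2 comparisons called 46.8% and 49.5% of all tested genes, and 3 and 2 of the 8 members tested. Between DM generations G3DM stood 0.56 and G5DM 0.06 above G1DM, as a description.

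**Figure D3:**
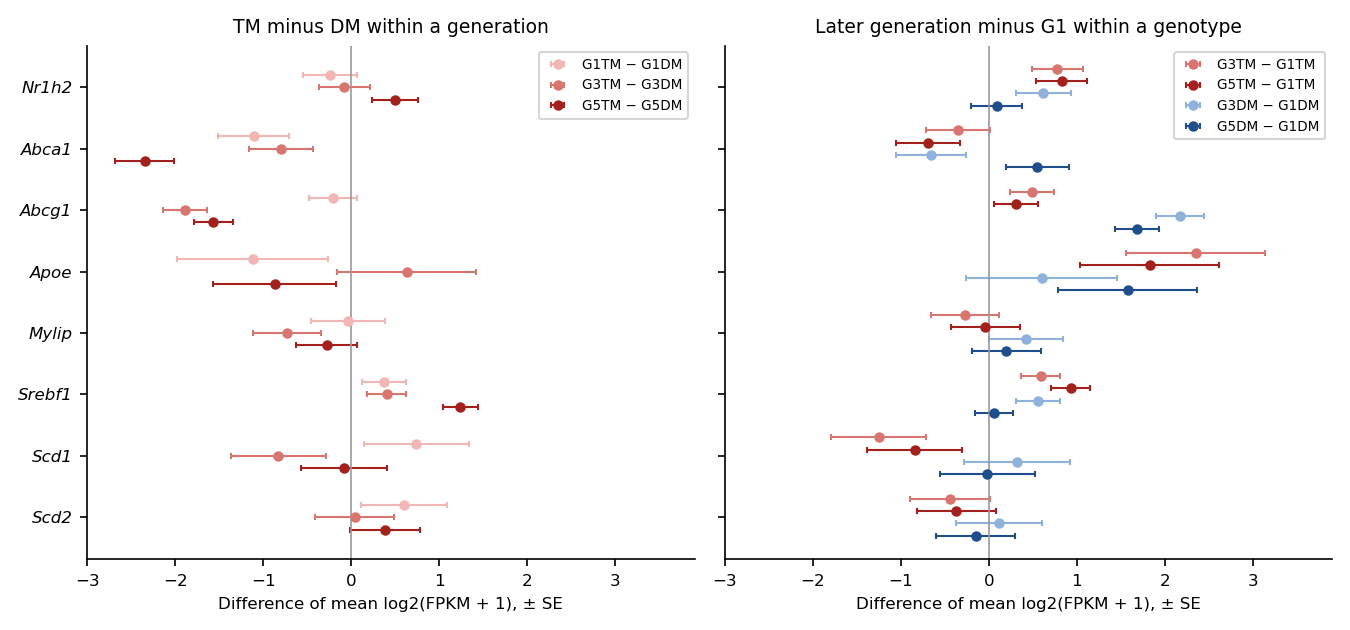
Differences of mean log2(FPKM + 1) with SE (x axes) for the 8 tested members (rows), between TM and DM within a generation (left) and between a later generation and G1 within a genotype (right); blue points, and every point of Abcg1 that involves DM, carry no test. For G5TM over G5DM, Abca1 lies at -2.35 and Srebf1 at 1.24, the 2 members that passed there.

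The stearoyl-CoA desaturases, which place the double bond of oleate, were abundant and gave no call in any tested comparison. Scd1 (chr19:44394451-44407709, minus strand) was at 144 and 135 FPKM in G1TM against 114 and 60.3 FPKM in G1DM, at 81.7, 78.0 and 30.4 FPKM in G3TM against 109 and 98.6 FPKM in G3DM, and at 85.4, 155 and 34.9 FPKM in G5TM against 58.4, 108 and 86.4 FPKM in G5DM. It was higher in TM without overlap in G1 and lower without overlap in G3, while 26.4% and 28.2% of tested genes were apart in those directions. The differences were 0.74 ± 0.60 in G1, -0.83 ± 0.54 in G3 and -0.08 ± 0.49 in G5 (limma adjusted p = 0.746, 0.265 and 0.900), and the test of G3 against G1 gave -1.57 ± 0.81 (adjusted p = 0.326). Scd1 was lower in all 3 G3TM libraries than in both G1TM libraries, as were 35.4% of tested genes (-1.25 ± 0.54, adjusted p = 0.0735), and that passed with quantile normalization (-1.88, adjusted p = 0.0257).

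Scd2 (chr19:44293676-44306864, plus strand) ranged between 218 and 655 FPKM, both ends within G5TM. Its genotype differences were 0.60 ± 0.49, 0.04 ± 0.45 and 0.38 ± 0.40 in G1, G3 and G5 (limma adjusted p = 0.749, 0.962 and 0.434), with the G3 sign turned by 3 other scalings and the G5 sign by quantile normalization. Scd2 was 3.31 to 7.64 times as abundant as Scd1 per length. The ratio was 5.28, 6.90 and 7.64 in G3TM and 5.08, 4.23 and 6.25 in G5TM, and at most 4.26 in the other 9 libraries, so the 6 libraries of the split held the high ratios but for G5TM replicate 2, at 4.23. The 2 genes are close paralogs on chromosome 19. How the counting treated reads they share is not given, and its part in the ratio was not tested.

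Among the members with a test, none passed between G1TM and G1DM, where limma called 1.17% of all genes, and none between G3TM and G3DM, where it called 32.0%. In each of these, 1 of 7 members, Abca1, had an unadjusted p under 0.05, and limma voom on the recovered reads called none. No member passed either interaction, where 2.42% (G3) and 19.8% (G5) of all genes were called; 0 and 2 members had an unadjusted p under 0.05, and voom called none. The median difference of the 7 members was -0.04, -0.08 and -0.08 in G1, G3 and G5, beside 0.02, 0.01 and 0.02 over all tested genes.

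The rest of the pathway was followed in 7 lists with 74 genes, of which 58 were tested. Between G1TM and G1DM 1 of the 58 passed. For G3TM over G3DM 2 were higher and 18 lower, beside 18.0% of all genes higher and 13.9% lower. For G5TM over G5DM 13 were higher and 26 lower, beside 30.3% and 28.4% of all genes. The median difference of the 58 was 0.08 in G1, -0.22 in G3 and -0.41 in G5.

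Other genes listed as LXR targets fell more often than they rose. Smpdl3a, a nucleotide phosphodiesterase gene induced by LXR ligands in human macrophages, was the gene that passed in G1. Whether LXR acts on it in these mouse fibroblasts was not tested. Smpdl3a fell in all 3 generations. It was at 2.69 and 2.26 FPKM in G1TM against 12.6 and 7.66 FPKM in G1DM, at 2.87, 3.16 and 4.14 FPKM in G3TM against 12.0 and 15.0 FPKM in G3DM, and at 2.46, 3.50 and 3.60 FPKM in G5TM against 18.5, 16.5 and 13.9 FPKM in G5DM. No TM library reached the level of any DM library, in this generation or another. The differences were -1.65 ± 0.25, -1.72 ± 0.22 and -2.05 ± 0.20 (limma adjusted p = 0.00564, 0.000198 and 1.14e-05). The G1 call stood without the 6 libraries of the split (adjusted p = 0.0409) and was lost in 4 of 23 alternatives: when only G1 was fitted, and without G1TM replicate 1, G1TM replicate 2 or G1DM replicate 1 (highest adjusted p = 0.108). Of the 7 tested targets 4 fell in G3TM and none rose; in G5TM 4 fell and 2 rose. Pltp, the phospholipid transfer protein, fell by 1.42 in G3TM and by 1.33 in G5TM. Apod, a lipocalin, fell by 1.00 and 2.26, and Mertk, a receptor for apoptotic cells, by 0.84 and 1.27. The 2 that rose in G5TM, named after their values were seen, were Lpcat3 (0.65) and Arl4c (0.86), and under each of 3 other scalings none of the 7 rose. Apoc2 and Apoc4 were listed at 0 in every library.

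**Figure D4:**
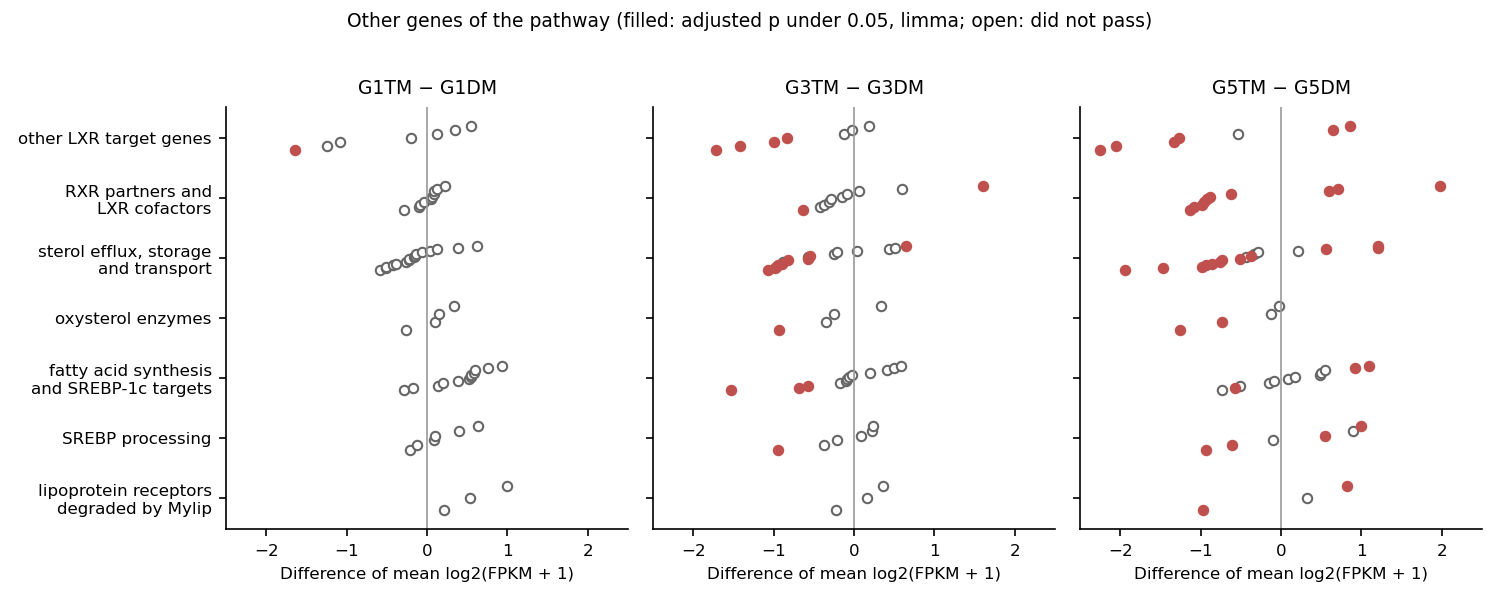
Differences of mean log2(FPKM + 1), TM minus DM (x axes), in G1, G3 and G5 for the tested genes of 7 pathway lists (rows); filled points passed limma at an adjusted p under 0.05. Only Smpdl3a, at -1.65, is filled in G1, and it lies at -1.72 in G3 and -2.05 in G5.

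Of the RXR partners and cofactors, all 10 tested genes passed in G5TM, 3 higher and 7 lower, but 1 higher and 7 lower with quantile normalization, and 2 higher and 7 lower with the recovered total or voom; 2 passed in G3TM. Rxrb, which encodes a partner of LXR, rose in G3TM and G5TM. It was at 6.73 and 7.11 FPKM in G1TM against 7.39 and 5.37 FPKM in G1DM, at 19.1, 47.6 and 33.9 FPKM in G3TM against 10.0 and 9.37 FPKM in G3DM, and at 24.2, 27.7 and 37.2 FPKM in G5TM against 9.60, 5.33 and 5.67 FPKM in G5DM. It separated along the library split, with 19.1 FPKM or more in the 6 libraries and at most 10.0 FPKM in the 9. So did 10 other tested genes of the lists: Stard3 was higher in the 6, and Cav1, Gpam, Mertk, Nceh1, Ncoa1, Ncoa3, Npc1, Osbp and Soat1 were lower. Of the 58 genes, 3.45% were higher and 15.5% lower in the 6 without overlap, beside 17.1% and 9.63% of all tested genes. The differences were 1.60 ± 0.33 in G3 and 1.98 ± 0.29 in G5 (limma adjusted p = 0.00326 and 0.000179), and 2.03 ± 0.33 for G3TM over G1TM. The corepressor genes Ncor1 (-1.14 ± 0.26) and Nrip1 (-1.08 ± 0.24) and the coactivator gene Ncoa2 (-0.98 ± 0.21) fell in G5TM, and the coactivator gene Ncoa3 fell in G3TM (-0.64 ± 0.15).

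Genes of sterol efflux, storage and intracellular transport gave 1 higher and 8 lower of 16 tested in G3TM, and 3 higher and 9 lower in G5TM. Npc1, which releases cholesterol from lysosomes, fell in G3TM to 4.98, 5.43 and 5.29 FPKM, against 11.4 and 12.9 FPKM in G3DM (-1.07 ± 0.18, limma adjusted p = 0.000976). In G3TM the phagocyte transporter gene Abca7 (-0.98), the lysosomal lipase gene Lipa (-0.97) and the cholesterol ester hydrolase gene Nceh1 (-0.95) fell too. In G5TM Cav1, the main protein of caveolae, fell to 74.2, 45.2 and 54.0 FPKM against 365, 205 and 142 FPKM in G5DM (-1.94 ± 0.40, adjusted p = 0.00143), and the transporter gene Abca5 fell by 1.47. Scarb1, the high-density lipoprotein receptor, rose by 1.21 ± 0.22 in G5TM (adjusted p = 0.000552), and Stard3, a late endosomal cholesterol transporter, rose 2.29-fold on the scale with the pseudocount (adjusted p = 0.000294).

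Of 4 tested oxysterol enzymes, 1 fell in G3TM and 2 in G5TM, and none rose. Ch25h, which makes the LXR ligand 25-hydroxycholesterol, was at 1.59, 1.35 and 1.59 FPKM in G5TM against 5.38, 5.34 and 4.40 FPKM in G5DM (-1.26 ± 0.17, limma adjusted p = 8.49e-05). Cyp27a1, which makes 27-hydroxycholesterol, was at 0.367, 0.500 and 0.0909 FPKM in G3TM against 1.06 and 2.07 FPKM in G3DM (-0.94 ± 0.25, adjusted p = 0.0126) and fell by 0.73 in G5TM (adjusted p = 0.0142). In G1 Ch25h was at 2.32 and 3.96 FPKM in G1TM against 2.31 and 2.17 FPKM in G1DM, barely apart, and the difference did not pass (0.33, adjusted p = 0.597).

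The genes of fatty acid synthesis did not follow Srebf1 as a list: 0 of 12 rose and 3 fell in G3TM, and 2 rose and 1 fell in G5TM. Fasn, whose promoter holds the element shared with Abca1, was at 147, 164 and 123 FPKM in G5TM against 75.3, 76.9 and 52.1 FPKM in G5DM (1.09 ± 0.23, limma adjusted p = 0.00152), and it was 0.39 with quantile normalization (adjusted p = 0.112). The shared letters thus stood before Abca1, which fell in G5TM, and before Fasn and 1 Srebf1 entry, whose genes rose. The Srebf1 values are per gene, so they do not show which start site was used. Fasn was at 112 and 121 FPKM in G1TM against 81.8 and 78.0 FPKM in G1DM, and at 99.0, 177 and 126 FPKM in G3TM against 96.9 and 98.8 FPKM in G3DM, without overlap in either, but the differences did not pass (0.54 and 0.41; adjusted p = 0.477 and 0.237). Fads2, a fatty acid desaturase, rose by 0.92 in G5TM and Gpam, which starts triglyceride synthesis, fell by 0.57 in both G3TM and G5TM. Under quantile normalization none of the 12 rose and 2 fell in G5TM. In G3TM the phosphatidate phosphatase gene Lpin1 (-1.53 ± 0.45) and the malic enzyme gene Me1 (-0.69 ± 0.21) fell.

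Among 6 genes of SREBP processing, Srebf2, the factor for cholesterol synthesis and uptake genes, was at 75.2, 82.6 and 65.1 FPKM in G5TM against 40.2, 38.1 and 32.2 FPKM in G5DM (0.99 ± 0.21, limma adjusted p = 0.00150; 0.33 and 0.175 with quantile normalization). Mbtps2, a protease that releases SREBPs, fell by 0.93 in G5TM and Insig2, which retains them, by 0.95 in G3TM and 0.61 in G5TM. Scap, their escort, rose by 0.55 (adjusted p = 0.0491), a call lost in 18 of 22 alternatives (highest adjusted p = 0.240).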

How the data were processed

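The deposited values are FPKM per gene, made by the authors; per the submitters' processing notes the tools named, with no role or order, include featureCounts 1.5.0-p3, HISAT2 2.0.5 and DESeq2 1.20.0, beside fastp and CASAVA 1.8. The genome build is not given in the sources used here; coordinates are those of the deposited table. Whole reads were recovered from the FPKM steps (tolerance 0.05 reads) to give depth. Groups came from the labels, and no sample column was left unused (0).

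Genes with at least 1 FPKM in at least 2 libraries (13562 of 54495) were tested on log2(FPKM + 1) with limma 3.58.1 (R 4.3.3): 1 model of 6 group means, a mean-variance trend, two-sided tests, Benjamini-Hochberg adjustment over all tested genes, and a call at an adjusted p under 0.05. The pseudocount shrinks fold changes of low genes. Interactions compare the TM over DM difference of G3 or G5 with that of G1. The fit was tested on simulated data. Members and lists were chosen with earlier results of these data known. Pathway genes were named if called, up to 4 per list and comparison by size; likeness names the 5 genes with the highest r. Promoters came from RefSeq (GRCm38.p6) and the motif was searched as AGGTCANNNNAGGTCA. Alternatives were the pseudocount (0.1), no filter, quantile, total-read and voom scaling, fits of the compared groups only, a replicate block and each library left out. The result of 1 gene of the lists is not reported here.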

Additional observations from a re-analysis of the deposited data

Results flagged for a closer look

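Of the other pathway genes, 1 differed between generations in its TM over DM difference by the interaction test of G3 against G1, and 13 by that of G5 against G1 (limma, adjusted over all tested genes, where 2.42% and 19.8% were called). Soat1, which stores cholesterol as ester, gave -1.28 ± 0.31 in G3 (adjusted p = 0.0486) and -1.23 ± 0.30 in G5 (adjusted p = 0.0169). In G5, Ch25h gave -1.59 ± 0.26 (adjusted p = 0.00312), a call kept in all 22 alternatives. Mertk gave -1.62 ± 0.37 and Abca5 -1.33 ± 0.40 (adjusted p = 0.0132 and 0.0361). Of the cofactors, Ncoa3 gave -0.97 ± 0.21, Med1 -1.14 ± 0.31 and Ncor1 -1.22 ± 0.41 (adjusted p = 0.0117, 0.0266 and 0.0493), while Rxrb gave 1.87 ± 0.46 (adjusted p = 0.0191). Stard3 gave 1.26 ± 0.30 and Gramd1a, a sterol transfer protein gene, 0.79 ± 0.26 (adjusted p = 0.0170 and 0.0498). Mbtps2 gave -1.03 ± 0.29 and Gpam -0.76 ± 0.24 (adjusted p = 0.0298 and 0.0439). Rxra, named after its values were seen, gave 0.88 ± 0.27 (adjusted p = 0.0405). Most of these calls were less firm than that of Ch25h. Of 22 alternatives, 20 ended the call of Gramd1a, 17 that of Ncor1, 17 that of Soat1 in G3, 16 that of Gpam, 9 that of Mbtps2, 8 that of Abca5 and 7 that of Med1. The calls of Rxrb (4), Mertk (3), Soat1 in G5 (3), Stard3 (2) and Ncoa3 (1) were lost in fewer. G3TM and G5TM are the libraries of the split, which cannot be told apart from the interaction.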

How the results depend on the processing

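Over the 41 tested member results, 835 alternative values kept direction and side of the threshold, 41 lost the call, 14 gained one and 19 turned sign; where a call changed, the cause was not tested. The sign of Scd2 for G3TM over G3DM turned with quantile normalization (-0.54), scaling to the recovered total (-0.09) and voom (-0.09), and for G5TM over G5DM with quantile normalization (-0.48). With single libraries left out, differences spanned 0 for Nr1h2 (-0.29 to 0.19), Apoe (-0.39 to 1.56) and Scd2 (-0.22 to 0.39) in G3TM over G3DM, Mylip in G1TM over G1DM (-0.75 to 0.67), G3TM over G1TM (-0.62 to 0.08) and G5TM over G1TM (-0.38 to 0.31), Scd1 in G5TM over G5DM (-0.57 to 0.49) and Scd2 in G5TM over G1TM (-0.74 to 0.05). Of 89 called results of named pathway genes, 36 kept their call in every alternative and 0 turned sign. Scaling shifted the median of all genes by 0.1 or more in these comparisons. With voom the shift was -0.10 in G3TM over G3DM, -0.18 in G5TM over G5DM, -0.21 in G3TM over G1TM, -0.15 in G5TM over G1TM, -0.11 in the G3 interaction and -0.17 in the G5 interaction. With the recovered total it was -0.14 in G5TM over G5DM, -0.16 in G3TM over G1TM, -0.11 in G5TM over G1TM and -0.13 in the G5 interaction.

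Genes called for G1TM over G1DM numbered 159, 408 with quantile normalization, 37 with only those groups fitted, 95 with the replicate block, 63 without the 6 G3TM and G5TM libraries (a fit chosen after seeing the data) and 21 to 353 with 1 library left out. For G3DM over G1DM they numbered 29, 3 with a pseudocount of 0.1, 118 with no filter, 57 with quantile normalization, 9 with the recovered total, 3 with voom, 0 with only those groups, 8 with the block, 1 without the 6 libraries and 0 to 1533 with 1 library left out. For G5DM over G1DM they numbered 8, 75 with no filter, 16 with quantile normalization, 5 with the recovered total, 5 with voom, 2 with only those groups, 5 with the block and 4 to 117 with 1 library left out. The G3 interaction called 328, 200 with no filter, 159 with the block and 80 to 1089 with 1 library left out; the G5 interaction called 2683, 1224 with no filter, 1636 with the block and 433 to 5762. With 1 library left out, G3TM over G3DM called 1538 to 5335, G5TM over G5DM 6007 to 8905, G3TM over G1TM 1774 to 7392 and G5TM over G1TM 2898 to 7684. The lowest of these counts came without G1TM replicate 1, except for G3TM over G3DM and G3DM over G1DM (without G3DM replicate 2), G5TM over G5DM (without G5DM replicate 2) and G5DM over G1DM, where leaving out any G1 library or G5DM replicate 2 gave the same 4; the highest came without G5DM replicate 1, except for G3TM over G3DM and the G3 interaction (without G3TM replicate 1). Replicate numbers were not used to pair the samples in the main fit. Deviations of 15 same-numbered pairs correlated at -0.34 to 0.38, with 6 above 0.1. Values from groups of 2 libraries are not independent of each other, so pairing was neither shown nor excluded.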
